A study of Homo sapiens with 6 samples.

Results

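The kinase cascade that acts on tristetraprolin (TTP) was described in PC-3 cells, an established human prostate cancer cell line, as 9 genes: the p38 kinases MAPK14, MAPK11, MAPK12 and MAPK13, the MAPK-activated kinases MAPKAPK2, MAPKAPK3 and MAPKAPK5, and the MAP2 kinases MAP2K3 and MAP2K6. They were found by gene symbol among the 22934 symbols of the deposited table of assembled gene loci, and all 9 were present. RNA-Seq was performed on 6 samples, 3 in each of 2 groups of PC-3 cells. Both groups carried the rtTA2 transactivator from a first retrovirus (pRetroX-Tet-On-Advanced, selected with G418), and both received 300 ng/ml doxycycline (Dox) for 4 hours. Control cells, named tdTom, carried a second retrovirus with tdTomato under the PGK promoter, and the group labelled TTP-tdTom carried the same vector with TTP behind the Dox-responsive promoter. Each was a transduced cell population sorted on tdTomato, so that the comparison is of 1 population with 1 other, and nothing states that the samples of a group came from separate infections.

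TTP is an RNA-binding protein that recognises AU-rich elements in the 3′ ends of mRNAs and brings them to the decay machinery. Stress and cytokine signals reach it through a cascade in which MAP3 kinases activate the MAP2 kinases MKK3 and MKK6, these phosphorylate p38 on a threonine and a tyrosine, and p38 activates MK2, encoded by MAPKAPK2. MK2 phosphorylates TTP, which then binds adaptor proteins, becomes more stable and is less able to recruit the enzymes that remove the poly(A) tail. The cascade works through phosphorylation of proteins, which RNA-Seq does not measure. The question put to the data here was how much mRNA of each kinase was present with and without the TTP transgene.

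The authors' deposited table gives 1 FPKM value per group and locus (fragment counts divided by the length of the transcript and the size of the library), so that levels can be compared between genes, but no spread between the 3 samples of a group can be given and no test between the groups was run. The number of fragments behind each value is unknown. In bulk RNA, fewer cells that express a gene and less of its RNA per cell cannot be told apart. A gene was called measured at an FPKM of at least 1 in either group and above 0 in both, which 13005 symbols met, with a median log2 difference of -0.23 (the group labelled TTP-tdTom over tdTom). ZFP36, the gene of TTP, had an FPKM of 5.56 in tdTom cells and 5.54 in the group labelled TTP-tdTom, so that no rise was seen at this locus, and whether transgene fragments were counted there was not tested. The epithelial markers KRT8, KRT18 and EPCAM had an FPKM between 15.1 and 98.2 in both groups, whereas CDH1 was at 0.119 and 0.390. The white blood cell and endothelial markers were below 1, and of the fibroblast markers COL1A1 was at 4.34 and 4.56, DCN at 0.199 and 0.236, and COL1A2 was listed at 0 in tdTom cells and at 1.38 in the group labelled TTP-tdTom.

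Among the p38 kinases, MAPK14 was lower in the group labelled TTP-tdTom while MAPK12 was close to its control level. MAPK14 encodes p38α, the broadly expressed p38 kinase and the main activator of MK2, and lies at chr6:35995454-36079013 of GRCh37 with 4 RefSeq transcripts. It had an FPKM of 4.96 in tdTom cells and 2.69 in the group labelled TTP-tdTom, a log2 difference of -0.88 that left 54.3% of the control level. Of the measured symbols, 11.8% had a lower difference than MAPK14. Its longest annotated 3′UTR that fits the locus (2789 bases in GENCODE release 29) holds no UAUUUAU, a heptamer found in many AU-rich elements, but holds the shorter pentamer AUUUA 4 times. These 4 sites are shown because MAPK14 is the measured p38 gene with the lower log2 difference. They are written as DNA, 5′ to 3′ on the plus strand of GRCh38, with the pentamer in capitals. All lie in the 3′UTR of the last exon.
MAPK14 site at chr6:36110118-36110146: gaggactcatatATTTAagccttttgtgt
MAPK14 site at chr6:36110743-36110771: cctatttttcaaATTTAgtgagtttctca
MAPK14 site at chr6:36110787-36110815: tctcttgtttttATTTAatgcacaatatg
MAPK14 site at chr6:36110874-36110902: actactcctaacATTTAgaaaatgttgat

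MAPK12 encodes p38γ, which is most abundant in skeletal muscle, and lies at chr22:50690944-50700089 of GRCh37. It had an FPKM of 1.96 in tdTom cells and 1.77 in the group labelled TTP-tdTom, a log2 difference of -0.14. MAPK12 therefore stood above the median of all measured symbols by 0.093 on the log2 scale, whereas MAPK14 stood below it by a difference of -0.65. The remaining p38 genes were below the minimum of 1 in both groups. MAPK13, which encodes p38δ, had an FPKM of 0.725 in tdTom cells and 0.941 in the group labelled TTP-tdTom. MAPK11, which encodes p38β, had an FPKM of 0.309 and 0.40, and the authors' software listed its locus as not tested. No fold is given for these low genes. The p38 genes form neighbouring pairs, with 19247 bases between the loci of MAPK14 and MAPK13 on chromosome 6 and 2052 bases between those of MAPK12 and MAPK11 on chromosome 22. In each pair 1 neighbour was measured and the other was below the minimum. Per length, MAPK14 made up 62.4% of the summed FPKM of the p38 genes in tdTom cells and 46.4% in the group labelled TTP-tdTom, while the share of MAPK12 was 24.6% and 30.5%. The sum itself was 7.95 and 5.81.

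**Figure D1:**
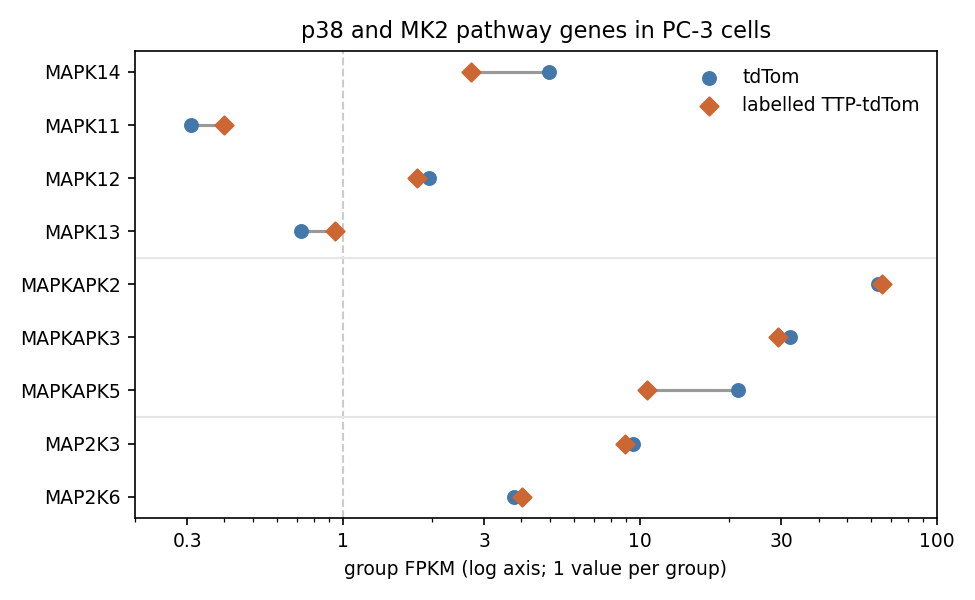
FPKM of the 9 genes on a log axis, with 1 value per group: circles for the tdTom group and diamonds for the group labelled TTP-tdTom; the dashed line marks an FPKM of 1. MAPK14 (4.96 and 2.69) and MAPKAPK5 (21.5 and 10.6) are set apart by the gap between their symbols, and MAPK11 and MAPK13 lie left of the line in both groups.

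The MAPK-activated kinases were the most abundant genes of the cascade, and 1 of the 3 was lower. MAPKAPK2, the gene of MK2, the kinase that phosphorylates TTP, lies at chr1:206858365-206907630 of GRCh37. It had an FPKM of 63.3 in tdTom cells and 65.4 in the group labelled TTP-tdTom, a log2 difference of 0.046. The gene was above 90.7% of measured symbols in control level, and 81.9% of them had a lower difference. MAPKAPK3 encodes MK3, a close relative of MK2 with shared substrates, and lies at chr3:50649293-50686728. It had an FPKM of 32.0 and 29.3, a log2 difference of -0.13. The group labelled TTP-tdTom thus kept 103.2% of the control level of MAPKAPK2 and 91.7% of that of MAPKAPK3.

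MAPKAPK5 encodes MK5, also called PRAK, which binds the atypical kinases ERK3 and ERK4 as well as p38. Its locus is chr12:112277522-112331228 of GRCh37, with 2 RefSeq transcripts. MAPKAPK5 had an FPKM of 21.5 in tdTom cells and 10.6 in the group labelled TTP-tdTom, a log2 difference of -1.02 that left 49.3%. Of the measured symbols, 8.16% had a lower difference. MAPKAPK5 made up 18.4% of the summed FPKM of the 3 kinases in tdTom cells and 10.1% in the group labelled TTP-tdTom, and MAPKAPK2 made up 54.2% and 62.1%. The level of MAPKAPK2 was 2.95 times that of MAPKAPK5 in tdTom cells and 6.17 times in the group labelled TTP-tdTom. The table lists C12orf47 over the same coordinates, at an FPKM of 4.64 and 3.42 with a log2 difference of -0.44. In GENCODE release 29, 71 of 1556 stretches of 75 bases (4.56%) of the fitting MAPKAPK5 transcript also occur, on the other strand, in transcripts of MAPKAPK5-AS1. Whether C12orf47 and MAPKAPK5-AS1 are the same gene was not checked. MAPKAPK5 and C12orf47 have the same coordinates but stand as separate loci, each with its own FPKM values. The libraries were strand-specific, but the sources used here do not state whether strand was used in assigning fragments. The part of the shared stretches in the MAPKAPK5 values was not tested.

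The annotated 3′UTR of MAPKAPK5 depends on the transcript. In the form that fits the span of the locus it has 100 bases and holds neither UAUUUAU nor AUUUA. In the longest form it has 9177 bases and holds 3 copies of the heptamer and 20 of AUUUA, but this transcript spans 60261 bases of the genome and the measured locus spans 53707, so that its end lies outside the locus. If both begin at the same base, the first 2623 bases of this 3′UTR lie within the locus, and the heptamers, which start at bases 4334, 4395 and 8791, lie beyond it. Whether PC-3 cells make the longer form was not tested. The 3 sites are shown because they are the heptamers annotated for the kinase gene with the lowest difference of the 9; coordinates are of GRCh38, plus strand, and TATTTAT is in capitals.
MAPKAPK5 site at chr12:111897384-111897412: gtatgtgcatgTATTTATtgaagaaaata
MAPKAPK5 site at chr12:111897445-111897473: ttcattttaatTATTTATttaaagagtag
MAPKAPK5 site at chr12:111901841-111901869: ttcacttttatTATTTATtttggtaatta

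**Figure D2:**
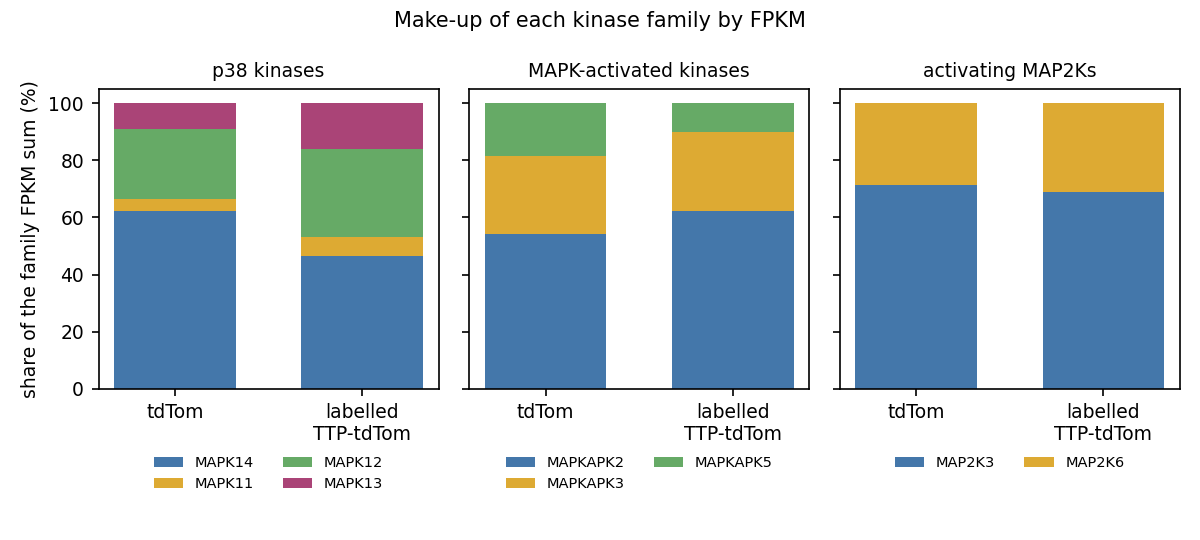
Share of the summed FPKM of each kinase family held by its genes, in percent, for the tdTom group and the group labelled TTP-tdTom (1 value each, stacked to the whole). MAPK14 goes from 62.4% to 46.4% of the p38 kinases and MAPKAPK5 from 18.4% to 10.1% of the MAPK-activated kinases, while MAP2K3 has 71.5% and 68.9% of the MAP2 kinases.

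The MAP2 kinases that activate p38 showed little difference between the groups. MAP2K3, the gene of MKK3, lies at chr17:21187968-21218551 of GRCh37 and had an FPKM of 9.47 in tdTom cells and 8.90 in the group labelled TTP-tdTom, a log2 difference of -0.089. MAP2K6, the gene of MKK6, lies at chr17:67410735-67538470 and had an FPKM of 3.77 and 4.03, a log2 difference of 0.095. MAP2K3 was thus the more abundant of the pair, by 2.51 times in tdTom cells and 2.21 times in the group labelled TTP-tdTom. Of the 2229 different 75-base stretches of the MAP2K3 transcript, a length equal to that of the reads, 10 also occurred in a transcript of AC243725.1. Only exact matches to annotated transcripts were counted, so near-identical or unannotated copies were not looked for. MAP2K6 holds no heptamer in the transcript that fits its locus. Its longest annotated form has a 3′UTR of 12108 bases with 3 copies, which start at bases 390, 476 and 3069, and spans 139164 bases, against a locus of 127736. If both begin at the same base, the first 680 bases of this 3′UTR, with 2 of the copies, lie within the locus. The 3 sites are printed beside those of MAPKAPK5, since both genes hold 3 copies in their longest form. The MAPKAPK5 copies, on the same assumption, all lie beyond its locus. Whether PC-3 cells make the longer form of MAP2K6 was not tested. Nor was the part of these sites in the differences of 0.095 (MAP2K6) and -1.02 (MAPKAPK5).
MAP2K6 site at chr17:69542132-69542160: tattattttaaTATTTATgtttaagtgct
MAP2K6 site at chr17:69542218-69542246: tgggttagcaaTATTTATagggcttttat
MAP2K6 site at chr17:69544811-69544839: gagagactacaTATTTATattcataatgc

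Across the cascade, 7 of the 9 genes were measured, and each of the 7 reached an FPKM of 1 in both groups. MAPK14 and MAPKAPK5 were lower by 1.5-fold or more in the group labelled TTP-tdTom, and no gene was higher by that much. These 2 of 7, or 28.6%, stand beside 22.8% of all measured symbols lower by 1.5-fold or more. Without centring, the number of lower genes in the cascade was thus near the background. Centred on the median of measured symbols, 2 of the 7 were lower, beside 13.6%. A level below control at all was found in 5 of the 7 genes and in 78.5% of measured symbols. By contrast, 3.9% of measured symbols were higher by 1.5-fold or more. At 2-fold, 1 of the 7, MAPKAPK5, was lower, beside 8.65% of measured symbols. The median log2 difference of the 7 genes was -0.13 against -0.23 over all measured symbols. Relative to that median, MAPK14 and MAPKAPK5 were at -0.65 and -0.78, while MAPK12, MAPKAPK3, MAP2K3, MAPKAPK2 and MAP2K6 were between 0.093 and 0.33. MAPK12, MAPKAPK3 and MAP2K3 were below their control level and above the median of all symbols, so that the sign of their small differences turns with the reference.

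**Figure D3:**
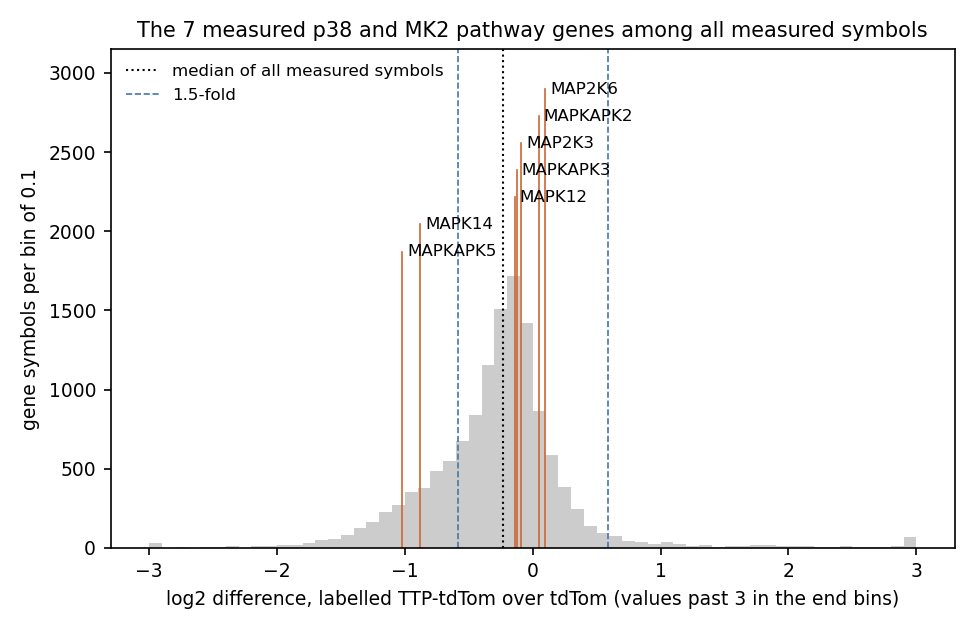
Number of measured gene symbols by log2 difference (the group labelled TTP-tdTom over tdTom) in bins of 0.1, with lines for the 7 measured genes, the median of all symbols and 1.5-fold in either direction. MAPKAPK5 and MAPK14 lie left of the 1.5-fold line at -1.02 and -0.88, and the other 5 lie between -0.14 and 0.095.

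The order of the levels was nearly the same in both groups. In the tdTom group it ran MAPKAPK2, MAPKAPK3, MAPKAPK5, MAP2K3, MAPK14, MAP2K6, MAPK12, MAPK13 and MAPK11, and in the group labelled TTP-tdTom MAPK14 and MAP2K6 changed places. With 1 value per group, it cannot be said which neighbours in this order differ beyond the spread between samples. MAPKAPK2 exceeded MAPK14, the kinase that activates its product, by 12.8 times in tdTom cells and 24.3 times in the group labelled TTP-tdTom. Relative to ZFP36, the level of MAPKAPK2 was 11.4 and 11.8 times, and that of MAPK14 was 0.893 and 0.486 times. Whether the ZFP36 value in the group labelled TTP-tdTom includes transgene fragments was not tested, so these may not be ratios to all TTP mRNA.

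Differences across all genes went with the base composition of the transcript. Over the 11516 measured symbols with an annotated 3′UTR that fits the locus, 88.6% of the total, the median log2 difference was -0.76 in the lowest of 10 equal bins of transcript GC content and -0.084 in the highest. The genes of the cascade fall in bins 3 to 10, counted from the lowest GC content. None falls in bins 1 and 2, in which 63.6% and 48.1% of symbols were lower by 1.5-fold or more. MAPK12, MAP2K3, MAPKAPK2 and MAPKAPK3 have a GC content between 57.3% and 65.2%, and their differences from the median of their own bin ran from -0.058 to 0.16. MAPK14 (46.3% GC) and MAPKAPK5 (48.0%) fall in the same bin, whose median was -0.25 and in which 20.2% of symbols were lower by 1.5-fold or more. MAPK14 was below that median by a difference of -0.63 and MAPKAPK5 by one of -0.77. MAP2K6, with 43.1% GC in the transcript that fits its locus, was above the median of its bin by 0.52. The part of GC content in these differences was not tested.

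**Figure D4:**
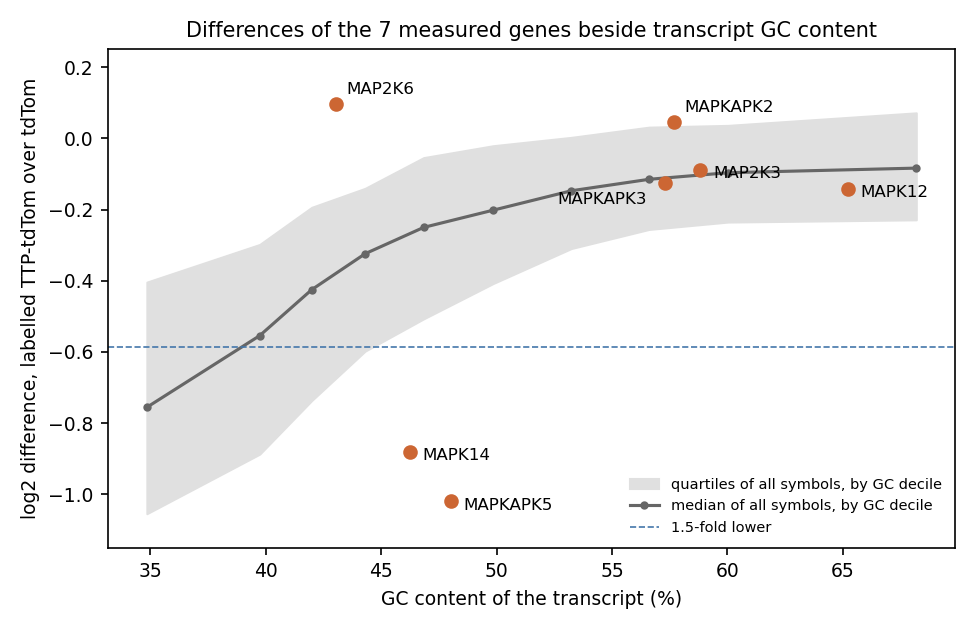
Log2 difference (the group labelled TTP-tdTom over tdTom) against GC content of the transcript in percent for the 7 measured genes, over the median (line) and quartiles (band) of all measured symbols in 10 bins of GC content. MAPK14 and MAPKAPK5 lie below the band at about the middle of the GC range, MAP2K6 lies above it at 43.1% GC, and of the 4 genes from 57.3% to 65.2% GC, MAPKAPK2 lies just above the band and the others within it.

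For counts over all symbols, the longest 3′UTR was used among fitting transcripts paired with a RefSeq name of the locus, or with its symbol where none was paired. In these 3′UTRs no gene of the cascade held UAUUUAU, while 32.5% of the 11516 measured symbols with such a 3′UTR did. A MAPK13 transcript without that pairing spans 14041 bases, the same as its locus, and its 3′UTR of 5323 bases holds UAUUUAU 1 time and AUUUA 5 times. The search was for U-A-U-U-U-A-U and A-U-U-U-A on the transcript's own strand, and every heptamer contains the pentamer. AUUUA was present in MAPK14 (4 copies), MAP2K6 (2), MAPKAPK2 (1), MAP2K3 (1) and MAPK13 (1), and absent from MAPK11, MAPK12, MAPKAPK3 and MAPKAPK5. At least 1 copy was present in 70.7% of these 11516 symbols and at least 4 in 35.2%. Symbols with no heptamer had a median log2 difference of -0.18, and those with 3 or more had one of -0.64, but their 3′UTRs were also longer, with medians of 751 and 3954 bases. The 674 symbols with 4 copies of AUUUA, as in MAPK14, had a median of -0.37, and 31.3% were lower by 1.5-fold or more. Among the 3375 symbols with none, as in the fitted form of MAPKAPK5, the median was -0.12 and 6.67% were lower by that much. The 3′UTRs of these groups differed in length as well, with medians of 1570 bases at 4 copies and 375 at none.

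Upstream of the cascade, 14 of 16 MAP3 kinases and adaptors were measured. Of these, 7 were lower by 1.5-fold or more in the group labelled TTP-tdTom and none was higher, beside 22.8% and 3.9% of all measured symbols, with a median log2 difference of -0.48. Centred on the median of measured symbols, 4 of the 14 were lower, beside 13.6%. GADD45A, a stress-induced activator of the MAP3 kinase MEKK4, had the lowest difference, at an FPKM of 41.8 in tdTom cells and 15.9 in the group labelled TTP-tdTom (log2 difference -1.40). MAP3K11, the gene of MLK3, had both the highest level and the highest difference, at 50.0 and 51.0. The other lower genes, named after their values were seen, were ZAK, TAB3, TAOK3, MAP3K7, TAB2 and TAOK1. They include the kinase TAK1 (MAP3K7) and its binding partners TAB2 and TAB3, whereas TAB1, a further partner, was at 4.01 and 3.84. With FPKM summed over all loci of a symbol, ZAK, which stands at 8 loci, was at 23.7 and 19.4. Then 6 of the 14 genes were lower, beside 22.4% of all measured symbols, and the median was -0.27.

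Beside MAPKAPK2, p38 activates other kinases, of which 4 of 4 were measured and 1 was lower by 1.5-fold or more, beside 22.8% of all measured symbols. This was RPS6KA5, the gene of the histone kinase MSK1, at an FPKM of 13.8 and 8.98 (log2 difference -0.62). It was no longer lower by 1.5-fold when centred on the median of measured symbols, at -0.39, with a pseudocount of 1 or with rescaled FPKM. RPS6KA4, the gene of MSK2, was at 14.8 and 13.4, and MKNK2, the gene of MNK2, which phosphorylates the cap-binding protein eIF4E, was at 4.31 and 4.16. Of 7 phosphatases that act on p38, 4 were measured and 3 were lower by 1.5-fold or more, with a median log2 difference of -0.72. When centred, 1 of the 4 was lower, beside 13.6% of all measured symbols. With a pseudocount of 1, 2 of the 4 were lower, beside 17.9%. PPM1B had the lowest difference, at an FPKM of 9.81 and 4.45 (log2 difference -1.14), followed by PPM1A at 13.5 and 7.77. Summed over its 3 loci, PPM1A was at 15.8 and 16.5, which left 2 of the 4 phosphatases lower, beside 22.4% of all measured symbols. PPM1D, the gene of the p53-induced phosphatase WIP1, was at 7.46 and 7.83. Of the p38 scaffolds, SPAG9, the gene of JIP4, was at 44.1 and 28.6 (log2 difference -0.63, or -0.39 when centred) and CCM2 at 5.32 and 5.41.

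Among substrates of p38 or MK2, the transcription factors and the RNA-binding proteins and chaperones stood at different medians. All 8 transcription factors were measured, 6 were lower by 1.5-fold or more, beside 22.8% of all measured symbols, and the median log2 difference was -0.75. Centred on the median of measured symbols, 3 of the 8 were lower, beside 13.6%, and the median was -0.52. ATF1 was the lowest, at an FPKM of 37.2 in tdTom cells and 10.9 in the group labelled TTP-tdTom (log2 difference -1.77). ATF2, a classical p38 substrate, had the highest level at 75.7 and 44.0, and ELK1 was at 7.96 and 6.99. All 8 RNA-binding proteins, chaperones and related substrates were measured as well, 1 was lower by 1.5-fold or more, and the median was -0.21. ZFP36L1, a paralog of TTP, was the one that was lower, at 40.3 and 23.3 (log2 difference -0.79). Centred in the same way it was at -0.55, and none of the 8 was lower by 1.5-fold. KHSRP, a decay-promoting RNA-binding protein, had the highest level at 197.6 and 169.7, at a locus that also carries a second symbol, and RIPK1 was at 10.15 in both groups. No test was made of the difference between these lists.

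The other MAPK modules were set beside the p38 cascade. The counts for these modules stand beside 22.8% of all measured symbols lower by 1.5-fold or more, and 13.6% when centred. Of 9 genes of the ERK module, 8 were measured and 2 were lower by 1.5-fold or more, with a median log2 difference of -0.25. When centred, 2 of the 8 were lower as well. MAP2K1, the gene of MEK1, had an FPKM of 7.37 and 3.05 (log2 difference -1.27). RPS6KA1, the gene of RSK1, was at 5.80 and 6.12, and ARAF had the highest level at 78.6 and 81.2. Of 5 genes of the JNK module, 4 were measured and 3 were lower by 1.5-fold or more, with a median of -0.80, against 2 of 4 when centred. MAP2K4, the gene of MKK4, which can also phosphorylate p38, was at 13.9 and 6.22 (log2 difference -1.16), whereas MAP2K7, which is specific for JNK, was at 7.88 and 8.68. Of 6 genes of ERK5 and the atypical MAPKs, 4 were measured and 1 was lower, MAPK6 at 18.7 and 7.44 (log2 difference -1.33), which encodes ERK3, a binding partner of MK5. MAPK7, the gene of ERK5, was at 4.13 and 3.98. Over all these lists, 56 of 66 genes were measured and 25, or 44.6%, were lower by 1.5-fold or more, beside the background of 22.8%, with a median of -0.43. Centred on the median of measured symbols, 13 of the 56 were lower, beside 13.6%, with a median of -0.20. The lists were chosen with earlier results of these data known, and no test was made of a difference between the p38 cascade and the other modules.

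**Figure D5:**
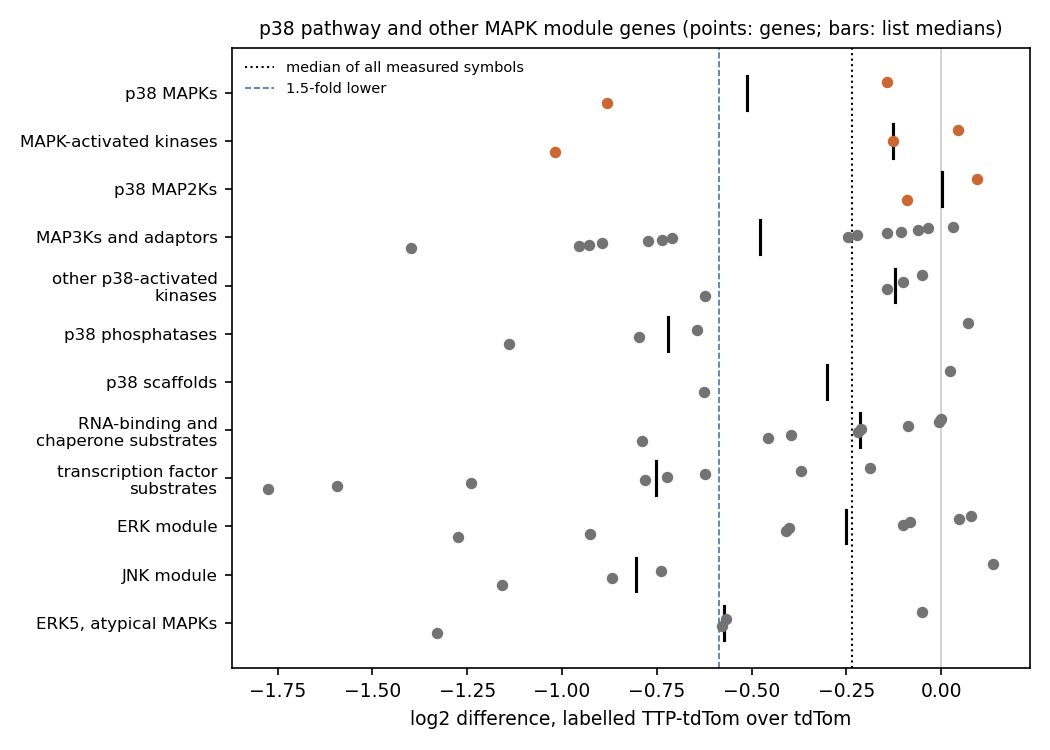
Log2 difference (the group labelled TTP-tdTom over tdTom) of each measured gene, by list, with a bar at each list's median; the genes of the p38 cascade are in orange, and vertical lines mark 0, the median of all measured symbols and 1.5-fold lower. The medians run from -0.80 for the JNK module to 0.0031 for the p38 MAP2 kinases.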

How the data were processed

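RNA-Seq was performed on 3 tdTom and 3 TTP-tdTom samples. According to the methods and the submitters' processing notes, reads were aligned to Hs37D5 (GRCh37 with decoy sequence) with TopHat2 2.0.13, and Cufflinks 2.2.1 was used to assemble transcripts and compare the groups. The values deposited by the authors are FPKM, 1 for each group at each of 406165 loci, of which 30218 carry a symbol. Its columns of the authors' own comparison (fold changes, test statistics, p-values and q-values) were not used. Per the labels, sequencing was planned for 40000000 to 50000000 read pairs of each sample. The group values have no replicate error, and the fragments counted for each are unknown.

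A symbol with more than 1 locus was represented by the one listing most RefSeq names, then by the highest FPKM sum. Where FPKM was instead summed over all loci of a symbol, the strand of the loci was not examined. Such a sum may include fragments that are not mRNA of the gene. Differences are log2 ratios of the group values with no pseudocount. As the table holds no values per sample, the limma fit allowed for in the design was not run. Starts are counted from 1. Members and lists were chosen with earlier results of these data known. Of the other lists, the genes with the lowest and highest difference and the highest tdTom FPKM were named.

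For each symbol, the longest 3′UTR was taken from GENCODE release 29 (GRCh38) among protein-coding transcripts paired with a RefSeq name of the locus, or else with its symbol, that span at most 100 bases more than the locus. No coordinate was converted between builds. Functions were tested on simulated data. Python 3.11.15 with numpy 2.4.6 and pandas 2.3.3 was used.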

Additional observations from a re-analysis of the deposited data

How the results depend on the processing

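No paired analysis was possible because the table analysed here gives 1 value for each group; no replicate could be left out and no fit with a replicate block was run either. A difference was taken as moved where it shifted by 0.1 or more on the log2 scale or crossed 1.5-fold. MAPK14 and MAPKAPK5 were the lower genes under each choice of locus, pseudocount, centring and scaling. The count of 2 became 1 at 2-fold, beside 8.65% of all measured symbols. It was also 1 at a minimum FPKM of 10, at which 3 of the 9 genes were measured, beside 26.7%. MAPK14 was nearest to the threshold when centred on the median of measured symbols, at -0.65, and with a pseudocount of 1, at -0.69. Centring put the median of the 7 measured genes at 0.11, that of the ERK module at -0.016 and that of the JNK module at -0.57, and lowered the background from 22.8% to 13.6%. With a pseudocount of 1 the JNK median was -0.66. At a minimum FPKM of 10 the ERK and JNK medians were -0.40 and -1.16, the second from MAP2K4 alone, and with no minimum the ERK median was -0.10. With FPKM summed over all loci, the genes of the other lists lower by 1.5-fold or more numbered 23 of 56 in place of 25, beside 22.4% of all measured symbols. The phosphatase median was then -0.29 in place of -0.72. With no minimum FPKM, 3 of 7 phosphatases were lower, beside 19.97% of all measured symbols. Their median was then -0.076. MAP2K5, at 3 loci, was at -0.57 at its main locus and at 0.38 when summed. At a minimum FPKM of 10, the MAP3 kinases and adaptors had a median of -0.74, with 5 of 7 lower, beside 26.7% of all measured symbols. Centring left 13 of the 56 genes of the other lists lower, beside 13.6% of all measured symbols, with a median of -0.20. A pseudocount of 1 or rescaled FPKM left 22, beside 17.9% and 20.4%, respectively.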

Other observations

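A few loci beside the main ones carry symbols of the cascade. MAP2K6 stands at 4 loci with the same coordinates, and the 3 not used above had an FPKM of 0.483, 0.485 and 0.580 in the tdTom group and 0.510, 0.194 and 0.695 in the group labelled TTP-tdTom. A further MAPK13 locus, with the coordinates of the main one, was at 0.294 and 0.378. The strand of these further loci was not examined, and whether their fragments come from mRNA of MAP2K6 or MAPK13 was not tested. Adding the further MAPK13 locus to the main one brought the sum over the minimum FPKM of 1. By that sum, 8 of the 9 genes counted as measured. Of these, 2 were lower by 1.5-fold or more, beside 22.4% of all measured symbols. No locus without a symbol overlapped any of the 9 genes.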
